A study of Mus musculus with 6 samples.

Results

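Clk1, Clk2, Clk3 and Clk4, which encode the 4 CDC-like kinases, and Cirbp and Rbm3, which encode the cold-inducible RNA-binding proteins, were followed in whole mouse brain. The 6 genes were taken by their symbols from tables that list 27378 genes, and all 6 were found and passed the filter of a mean of at least 1 FPKM that left 12229 genes. FPKM are fragment numbers divided by the length of the gene and by the depth of its library, so levels can be set side by side between genes. Mice of the PS group were wild-type male C57BL/6J mice given polystyrene nanoplastic through the nose for 28 days, and control mice, of the same strain, sex and genotype, were given sterile distilled water by that route for as long. Each group held 3 libraries of total RNA from brain, and the labels do not say that each came from a separate animal, and errors given here are those between samples and may hold a technical share. The members were selected on the PS against control fold changes of these same libraries, which were known when the 6 names were picked. Their levels and fold changes are therefore descriptions, and their place in the fit over all genes is given as such and not as independent evidence.

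CDC-like kinases sit in the nucleus and phosphorylate SR proteins, the serine- and arginine-rich splicing factors, and so act on the choice of exons. Their activity is known to rise when body temperature is slightly lowered. Cirbp and Rbm3 encode small glycine-rich proteins with an RNA recognition motif whose transcripts are known to rise on mild cooling, and in mice Rbm3 is known for its part in the upkeep of synapses after cooling. Both families are also known for transcripts that differ in retained introns or in exons that lead to decay. The values here are sums per gene and do not separate such transcripts.

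Clk1 was the member with the widest gap between the groups. It stood at 15.2, 16.6 and 15.4 FPKM in PS replicates 1, 2 and 3, against 24.3, 24.5 and 19.6 FPKM in control replicates 1, 2 and 3. All 3 PS libraries lay below all 3 control libraries, the 3 PS values lay close together, and control replicate 3 lay nearest to the PS group. Clk1 averaged 15.7 ± 0.769 FPKM in PS and 22.8 ± 2.73 FPKM in control brains (SD, n = 3 each), a ratio of means of 0.691. Its log2 fold change, taken as PS over control of FPKM + 1, was -0.50 (SE 0.088, 95% interval from -0.70 to -0.30). Of the 12229 genes tested, 57 had a lower log2 fold change. The values rest on 1112 to 1765 reads per library, whose counting error was 2.38 to 3.0%, so the gap was wider than counting alone gives. In bulk tissue, fewer cells of a type and less RNA per cell cannot be told apart.

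Clk4, the closest relative of Clk1 in the family, lay in the same order at a lower level. It stood at 4.83, 4.80 and 4.57 FPKM in PS replicates 1, 2 and 3, against 5.44, 5.75 and 5.65 FPKM in control replicates 1, 2 and 3. The groups did not overlap, and within each group the libraries differed little. The means were 4.73 ± 0.143 FPKM in PS and 5.61 ± 0.158 FPKM in control brains (SD, n = 3 each). The log2 fold change of Clk4 was -0.21 (SE 0.062, 95% interval from -0.35 to -0.06). The spread of Clk4 within groups was 0.035 on the log2 scale, and 4.49% of the genes tested had a smaller one; counting error over its 797 to 983 reads was 3.19 to 3.54%.

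The 250 bases before the Clk4 start are shown because Clk4 was a Clk member with no overlap between groups and because they hold a motif found in few such windows. They are from RefSeq on GRCm38.p6, chr11:51262864-51263113, plus strand, written 5′ to 3′, with capitals marking TGACGTCA, the full cAMP response element known to bind CREB.
Clk4: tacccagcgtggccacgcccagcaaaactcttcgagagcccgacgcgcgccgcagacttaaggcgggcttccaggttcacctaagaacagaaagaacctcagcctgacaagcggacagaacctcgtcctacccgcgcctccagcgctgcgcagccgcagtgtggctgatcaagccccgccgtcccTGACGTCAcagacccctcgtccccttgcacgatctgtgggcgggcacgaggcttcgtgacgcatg
The motif lies 65 to 58 bases before the start, and 1.55% of all 32851 RefSeq windows of this length hold it on either strand. Windows of the same length were matched by symbol for 4 of the 6 members, with 5 windows in all, and none was at hand for Clk1 or Rbm3. The Clk2 window holds 1 E-box, CACGTG, a motif in 6.02% of all windows. GAANNTTC, a core of the heat shock element, occurred in none of the 5 windows and in 6.69% of all windows. These matches describe letters in a window and not binding.

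Clk3 differed by less. Its values were 7.13, 7.47 and 6.82 FPKM in PS replicates 1, 2 and 3, against 7.92, 7.54 and 7.60 FPKM in control replicates 1, 2 and 3. The groups did not overlap, but only 0.0726 FPKM separated the highest PS from the lowest control library. The log2 fold change of Clk3 was -0.09 (SE 0.062, 95% interval from -0.24 to 0.05), so the interval spans 0. Counting error over its 1328 to 1530 reads was 2.56 to 2.74%, beside coefficients of variation of 4.58% in PS and 2.63% in control brains.

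Clk2 was the lowest member and the one with the largest counting error. It stood at 1.18, 1.47 and 1.14 FPKM in PS replicates 1, 2 and 3, against 1.37, 1.22 and 1.02 FPKM in control replicates 1, 2 and 3, and the groups overlapped. Its log2 fold change was 0.04 (SE 0.093, 95% interval from -0.17 to 0.25), and its sign turned without PS replicate 2 or without control replicate 3, to -0.02 in each case. Only 94 to 138 reads lie behind each value, with a counting error of 8.51 to 10.3%. The coefficients of variation of Clk2 were 14.3% in PS and 14.4% in control brains. Scamp3, the gene next to Clk2 on the same strand in the RefSeq table, was also low, at 0.405 FPKM in PS and 0.427 FPKM in control brains, below the filter. Whether the counting left out reads that fit more than 1 gene was not settled by the files, so the level of Clk2 is uncertain.

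**Figure D1:**
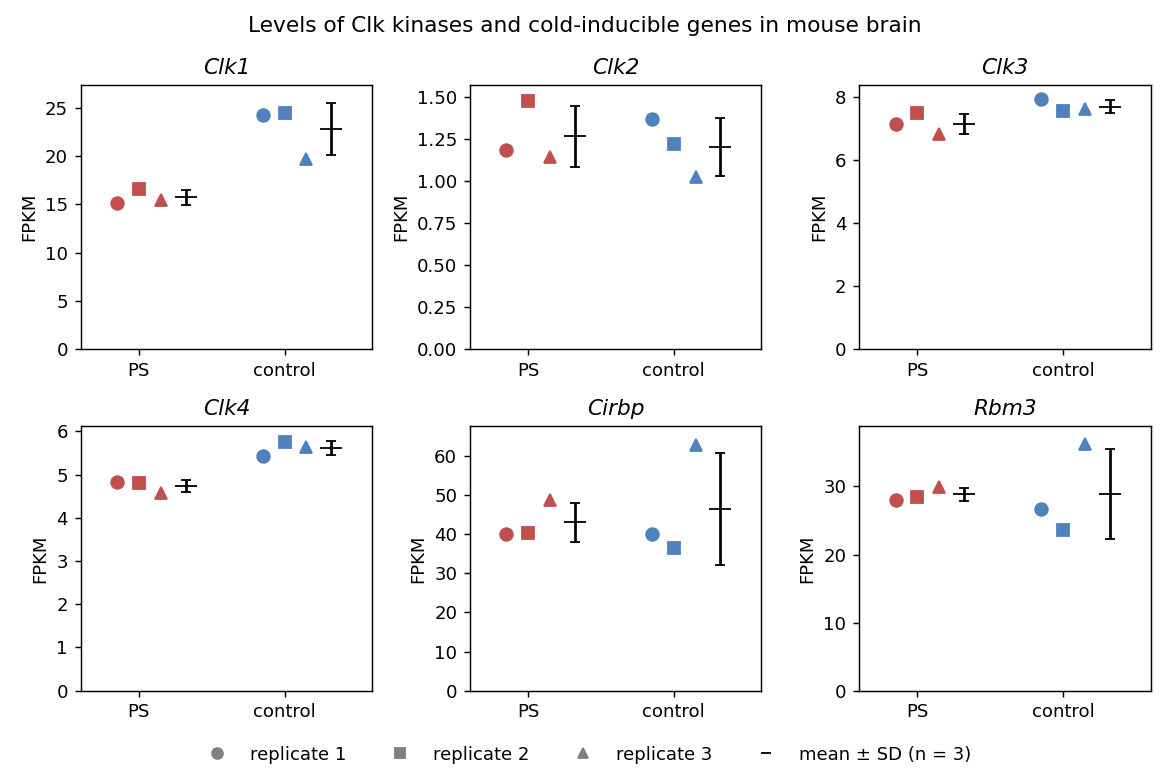
FPKM (y axis, from 0) of each member in PS and control brains, 1 point per library with the shape giving the replicate number, and black marks for mean ± SD (n = 3). PS libraries lie below control libraries for Clk1, Clk3 and Clk4, while the groups overlap for Clk2, Cirbp and Rbm3, and control replicate 3 stands high for Cirbp (62.9 FPKM) and Rbm3 (36.3 FPKM).

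As a family, the Clk kinases summed to 28.3, 30.4 and 28.0 FPKM in PS replicates 1, 2 and 3, against 39.0, 39.0 and 33.9 FPKM in control replicates 1, 2 and 3. The 2 groups did not overlap, and most of the gap came from Clk1, the most abundant Clk. Clk1 made up 54.5 ± 0.837% of the summed Clk level in PS and 61.0 ± 2.66% in control brains (SD, n = 3 each). Clk3 made up 24.7 ± 0.417% in PS and 20.7 ± 1.56% in control brains. The ratio of Clk1 to Clk4 was 3.14, 3.46 and 3.38 in PS replicates 1, 2 and 3, against 4.47, 4.25 and 3.48 in control replicates 1, 2 and 3. By that ratio control replicate 3 lay just above the highest PS library, so Clk1 and Clk4 stood in nearly the same proportion there as in the PS brains.

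Cirbp, the most abundant member, did not separate the groups. It stood at 40.1, 40.2 and 48.9 FPKM in PS replicates 1, 2 and 3, against 40.0, 36.5 and 62.9 FPKM in control replicates 1, 2 and 3. Control replicate 3 was the highest of the 6 libraries and PS replicate 3 the next. The means were 43.0 ± 5.05 FPKM in PS and 46.5 ± 14.3 FPKM in control brains (SD, n = 3 each). The log2 fold change of Cirbp was -0.07 (SE 0.18, 95% interval from -0.48 to 0.33), and it was 0.16 without control replicate 3. Counting error over 2709 to 4710 reads was 1.46 to 1.92%, far below the spread between the control libraries, whose coefficient of variation was 30.8%.

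The 250 bases before the upstream of the 2 Cirbp starts are shown because they hold the motif known from the mouse gene for its response to mild cooling. They are from RefSeq on GRCm38.p6, chr10:80167589-80167838, plus strand, written 5′ to 3′, with capitals marking TCCCCGCC, known as the mild-cool-responsive element.
Cirbp: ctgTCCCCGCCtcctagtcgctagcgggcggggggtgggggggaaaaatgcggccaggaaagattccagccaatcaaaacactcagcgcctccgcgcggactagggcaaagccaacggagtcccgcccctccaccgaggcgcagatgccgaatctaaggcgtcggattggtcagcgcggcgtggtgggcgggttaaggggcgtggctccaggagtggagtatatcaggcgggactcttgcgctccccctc
The element lies 247 to 240 bases before the start, and 4.64% of all 32851 windows hold it on either strand. None of the other windows held it, and Rbm3 and Clk1 had no window to search.

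Rbm3 followed Cirbp from library to library. It stood at 28.0, 28.5 and 29.9 FPKM in PS replicates 1, 2 and 3, against 26.7, 23.7 and 36.3 FPKM in control replicates 1, 2 and 3. As for Cirbp, control replicate 3 was highest, PS replicate 3 next and control replicate 2 lowest. The means were 28.8 ± 0.974 FPKM in PS and 28.9 ± 6.60 FPKM in control brains (SD, n = 3 each), so the group means nearly coincided while the control libraries varied more. The log2 fold change of Rbm3 was 0.02 (SE 0.13, 95% interval from -0.28 to 0.31), and its sign turned without control replicate 2, to -0.11, and also without control replicate 1 or PS replicate 3, to -0.02 and -0.0076. Rbm3-ps, a pseudogene copy of Rbm3 that can share its reads, was at 1.85, 1.58 and 1.22 FPKM in PS replicates 1, 2 and 3, against 1.38, 1.82 and 3.48 FPKM in control replicates 1, 2 and 3. It too was highest in control replicate 3, at a level far below that of Rbm3. Rbm3os, which overlaps Rbm3 on the opposite strand, stayed at 0.364 FPKM or less, and whether the counting used strand is not stated in the sources at hand.

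The ratio of Cirbp to Rbm3 was 1.43, 1.41 and 1.63 in PS replicates 1, 2 and 3, against 1.495, 1.54 and 1.73 in control replicates 1, 2 and 3. It was highest in the third library of each group, where both genes were also highest. The spread of Cirbp within groups, 0.31 on the log2 scale, was wider than in 98.8% of the genes tested, and that of Rbm3, 0.22, wider than in 95.5%. In both groups the library numbered 3 lay above its group mean, for Cirbp by 0.19 in PS and 0.47 in control on the log2 scale, and for Rbm3 by 0.05 in PS and 0.34 in control. With the replicate number as a block, the standard error of the Cirbp log2 fold change was 0.09 in place of 0.18, and that of Rbm3 0.093 in place of 0.13. Smaller errors follow from both genes being high in library 3 of each group. The block was itself chosen from these libraries, so nothing about pairing is read from these errors. Clk1 went the other way in control replicate 3, 0.20 below its group mean, and lay 0.03 below its group mean in PS replicate 3.

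**Figure D2:**
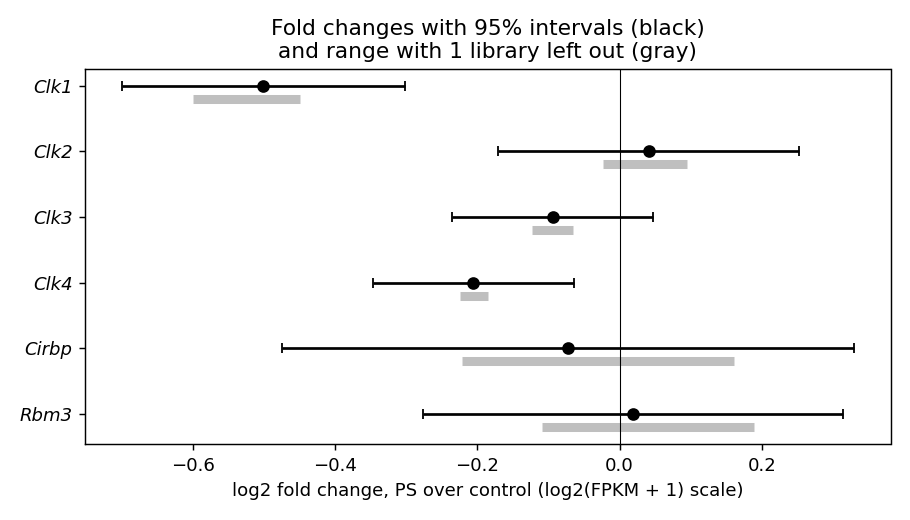
Log2 fold change of each member, on a log2(FPKM + 1) scale with PS over control (x axis), with black points and 95% intervals from limma and gray bars for the range over the 6 fits that each leave out 1 library. The bars of Clk1, Clk3 and Clk4 stay below 0, as they must where all PS libraries lie below all control libraries. Those of Clk2, Cirbp and Rbm3 cross 0.

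In the fit over all 12229 genes, 0 of the 6 members passed an adjusted p under 0.05, where 0.164% of all genes did, and the lowest was that of Clk1 (limma adjusted p = 0.0956). At an unadjusted p under 0.05 there were 2, Clk1 and Clk4, where 5.94% of all genes were, and limma-voom on recovered reads called 0. With the replicate number as a block, 1 of the 6 passed, Clk1, where 0.393% of all genes did (limma adjusted p = 0.0224). Without control replicate 3, the control library nearest to the PS group, whose removal widens the gap by construction, the log2 fold change of Clk1 was -0.60 (limma adjusted p = 0.0117). In the 5 fits that each left out another library it ran from -0.54 to -0.45, with limma adjusted p from 0.167 to 0.498. Of the 6 members, 3 had no overlap between groups, all with PS lower, where 6.33% of all genes did. The members were picked with this comparison known, so nothing is read from these counts. The median log2 fold change was -0.08 over the 6 members and 0.003 over all genes tested.

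Markers of the cell types of brain were present in every library, as the label of the tissue says. Of the 5 red-cell markers, all 5 were lower in PS, and their summed level was 56.7 to 99.5 FPKM in PS and 127 to 196 FPKM in control brains, with none at 0. All 5 had an unadjusted p under 0.05, where 5.94% of all genes did. Over all genes, limma called 0 of the 5, where 0.164% were called, and limma-voom 1, where it called 29 of 12229. With the replicate number as a block 4 of the 5 were called, as Clk1 was, where 0.393% of all genes were. The 5 endothelial markers summed to 48.9 to 55.0 FPKM in PS and 54.0 to 63.5 FPKM in control brains, and the 6 oligodendrocyte markers to 1459.6 to 1649.6 FPKM in PS and 1060.2 to 1528 FPKM in control brains. Neuron markers summed to 1706 to 1857 FPKM in PS and 1747 to 1886 FPKM in control brains, astrocyte markers to 368 to 399.9 FPKM in PS and 362 to 378 FPKM in control brains, and microglia markers to 52.3 to 57.7 FPKM in PS and 48.9 to 56.2 FPKM in control brains. All 5 endothelial markers had log2 fold changes below 0, and all 6 oligodendrocyte and all 6 astrocyte markers above 0. Neuron markers were split, 3 below and 4 above. So were microglia markers, 2 below and 3 above, from Aif1 at -0.24 to Cx3cr1 at 0.38. Outside the red-cell list, limma called no marker with or without the block. The red-cell sums separated the groups as Clk1 did, and their part in the Clk1 difference was not tested. The libraries held 39239183 to 40335590 reads, so depth hardly differed. On the first principal component of all tested genes, which held 42.3% of the variance, control replicates 2 and 3 lay at the opposite ends, as they did for Cirbp and Rbm3. Their scores were 17.46 and -8.21, with control replicate 1 at 2.93 and the PS libraries from -5.43 to -2.79. On this component control replicate 2 thus lay farthest from the rest, and control replicate 3 lay nearest to PS replicate 3.

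By level, the order of the means over the 6 libraries was Cirbp at 44.8, Rbm3 at 28.9, Clk1 at 19.3, Clk3 at 7.41, Clk4 at 5.17 and Clk2 at 1.24 FPKM. This order held in 5 of 6 libraries. In control replicate 2, Clk1 stood above Rbm3. In control brains these neighbours, Clk1 and Rbm3, did not differ beyond their spread. The highest Rbm3 value, 36.3 FPKM in control replicate 3, lay just under the lowest Cirbp value, 36.5 FPKM in control replicate 2. Among all genes tested, Cirbp lay above 88.9% by mean level, Clk1 above 73.8% and Clk2 above 3.32%.

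The likeness of 2 genes was measured as the root-mean-square difference of their log2(FPKM + 1) profiles over the 6 libraries, each centred on its own mean, with 7841 other named genes of at least 5 FPKM as candidates. For Clk1 the nearest were Vegfa, the growth factor of vessels (difference 0.069), Rasd1, a Ras-related GTPase induced by glucocorticoids (0.083), and Plat, tissue plasminogen activator (0.097). Vegfa stood at 9.04, 8.75 and 7.87 FPKM in PS replicates 1, 2 and 3, against 12.8, 13.0 and 10.3 FPKM in control replicates 1, 2 and 3. As with Clk1, its control replicate 3 lay nearest to the PS libraries. Of these, Rasd1 was called over all genes, where 0.164% of all genes were (log2 fold change -0.53, limma adjusted p = 0.0227). Vegfa was called with the replicate number as a block, where 0.393% of all genes were (log2 fold change -0.44, limma adjusted p = 0.241, and 0.0264 with the block). These genes were picked for a profile like that of Clk1 in the same libraries. Their lower levels in PS therefore follow from the choice, and nothing is read from their calls. Clk4 took place 163 of the 7846 genes ranked by their difference from Clk1, while Clk1 took place 6742 by difference from Clk4. From Clk1, Rbm3 and Cirbp were among the farthest, at places 7468 and 7664. They were about as far from Clk2, Clk3 and Clk4, Rbm3 at places 7648, 7472 and 7349 and Cirbp at 7786, 7739 and 7673. The difference is not scaled to the range of a gene, so genes of wide range tend to lie far from most others. Cirbp ranged more widely over the libraries than 98.0% of the genes tested, and Rbm3 more than 95.2%.

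For Cirbp the nearest genes were Xpa, a DNA repair factor (0.066), Hmgb3, a chromatin protein (0.091), and Il33, an alarmin cytokine (0.106), and Rbm3 itself took place 3 when the members were ranked too (0.104). Xpa stood at 5.99, 6.26 and 6.62 FPKM in PS replicates 1, 2 and 3, against 5.88, 5.52 and 9.59 FPKM in control replicates 1, 2 and 3. Its high value in control replicate 3 is the feature it has in common with Cirbp. For Rbm3 the nearest were Hadh, a mitochondrial enzyme of fatty acid oxidation (0.04), Med30, a Mediator subunit (0.04), and Gar1, a component of box H/ACA ribonucleoproteins (0.042), and Cirbp took place 266. Xpa, Hmgb3, Il33, Hadh, Med30 and Gar1 had log2 fold changes from -0.12 to 0.09, and limma called none of them with or without the block. They were picked for profiles like those of Cirbp and Rbm3, so small fold changes follow from the choice. These likenesses describe 6 libraries. For Cirbp and Rbm3, 1 library, control replicate 3, sets most of the profile, at 0.51 and 0.33 from the mean. For Clk1 that library had the smallest departure, 0.052.

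**Figure D3:**
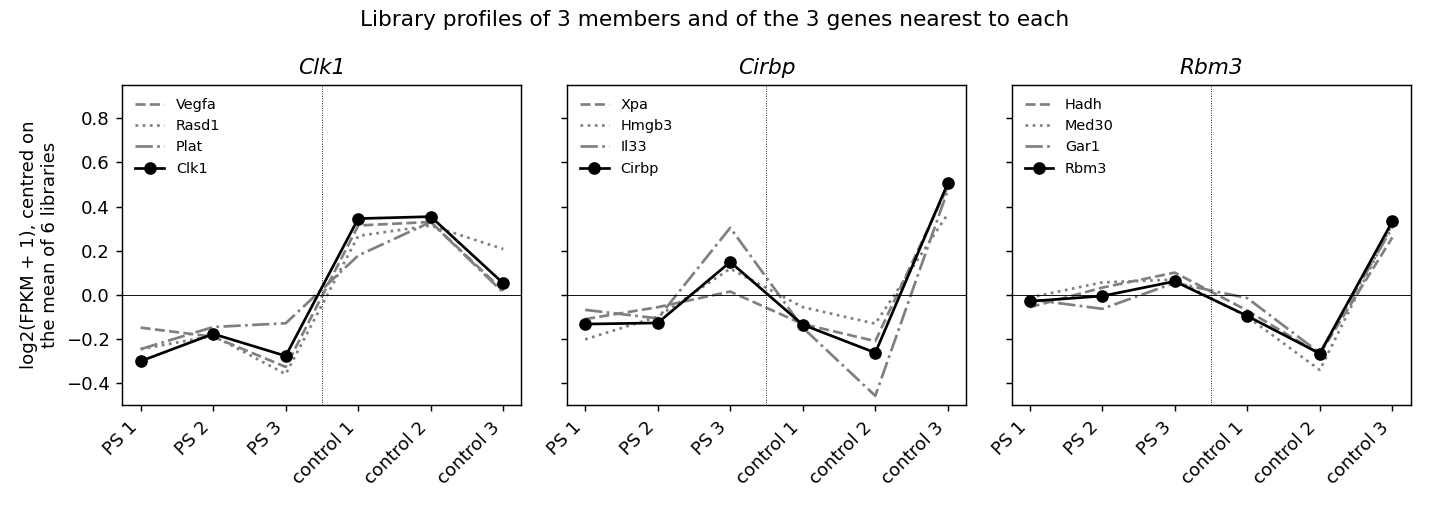
Log2(FPKM + 1) of Clk1, Cirbp and Rbm3 (black) and of the 3 genes nearest to each (gray), centred on the mean of the 6 libraries (y axis), by library (x axis, PS left of control). The Clk1 profile is low in all PS libraries and drops towards 0 in control replicate 3, where Cirbp and Rbm3 peak at 0.51 and 0.33.

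Other kinases that act on SR proteins or belong to the same kinase group were read as a list. Log2 fold changes of those tested ran from -0.57 to 0.11, where the quartiles over all genes tested were -0.0547 and 0.0594. Of 13 listed kinases, 10 were tested, and 1 was called lower, where 0.164% of all genes were, and 0 higher. Their median log2 fold change was -0.05 against 0.003 over all genes. The called gene was Dyrk3, a kinase that dissolves stress granules and other condensates. It stood at 3.17, 3.29 and 3.27 FPKM in PS replicates 1, 2 and 3, against 5.48, 5.50 and 4.96 FPKM in control replicates 1, 2 and 3 (log2 fold change -0.57, SE 0.067, limma adjusted p = 0.0153). The PS libraries were nearly equal and all lay below the control libraries. Prpf4b, Dyrk2, Srpk1 and Srpk2 were not called and were picked for naming with their values known. Prpf4b, a kinase of the spliceosome, averaged 7.12 ± 0.155 FPKM in PS and 8.11 ± 0.782 FPKM in control brains, and Dyrk2 4.61 ± 0.513 FPKM in PS and 5.57 ± 1.13 FPKM in control brains (SD, n = 3 each), with limma adjusted p = 0.844 and 0.903. The SR-protein kinases Srpk1 and Srpk2 had log2 fold changes of 0.03 and 0.10, and Srpk3, Dyrk4 and Hipk4 were below the filter.

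Of 16 SR proteins and SR-like factors, the substrates of the Clk kinases, all 16 were tested. Limma called 0, where 0.164% of all genes were, and 0 with the block, where 0.393% were. At an unadjusted p under 0.05 there were 2, where 5.94% of all genes were, and limma-voom on recovered reads called 0. Their median log2 fold change was -0.09, with 11 below 0 and 5 above. Srsf2, which binds exonic enhancers, stood at 33.3, 33.9 and 35.3 FPKM in PS replicates 1, 2 and 3, against 38.5, 37.9 and 39.4 FPKM in control replicates 1, 2 and 3 (log2 fold change -0.17, limma adjusted p = 0.586). Srsf3, the smallest of the SR proteins, had a log2 fold change of -0.15 (limma adjusted p = 0.716), and Tra2a, a relative of the Drosophila splicing factor Transformer-2, one of -0.23 (limma adjusted p = 0.844). Srsf2 and Srsf3 did not overlap between the groups, as 4 of the 16 did with PS lower, where 6.33% of all genes did. Srsf5 and Srsf10 were singled out after their values were seen, for control replicate 3. Srsf5 stood at 69.3, 72.4 and 67.9 FPKM in PS replicates 1, 2 and 3, against 50.7, 52.5 and 86.8 FPKM in control replicates 1, 2 and 3. Like Cirbp and Rbm3, it was highest in control replicate 3 and lower in the other control libraries. Srsf10 stood at 9.15, 9.34 and 8.24 FPKM in PS replicates 1, 2 and 3, against 12.2, 12.5 and 8.12 FPKM in control replicates 1, 2 and 3, so that control replicate 3 lay at the level of the PS libraries, as it nearly did for the ratio of Clk1 to Clk4.

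**Figure D4:**
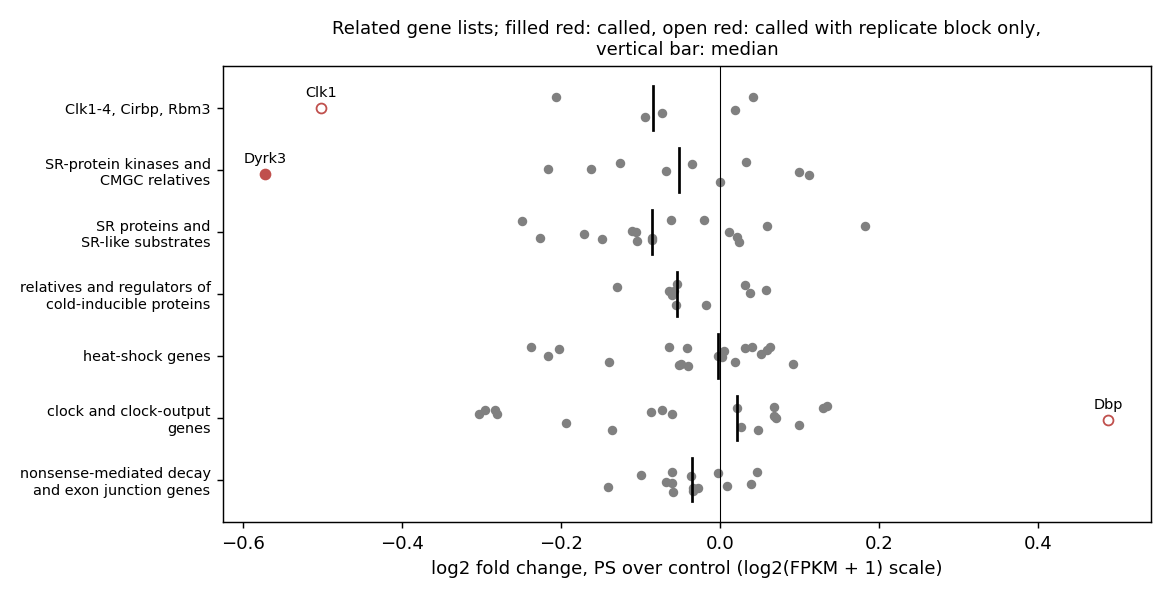
Log2 fold change, on a log2(FPKM + 1) scale with PS over control (x axis), of the 6 members and of the tested genes of the 6 pathway lists, with vertical bars for the medians; cell type markers are not plotted, and vertical position within a list has no meaning. Among the genes plotted, Dyrk3 is the only one called (filled red, -0.57), and Clk1 (-0.50) and Dbp (0.49) were called only with the replicate number as a block (open red).

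Relatives and regulators of the cold-inducible proteins lay close to 0. All 10 were tested, and limma called 0, where 0.164% of all genes were, and 0 with the block, where 0.393% were. At an unadjusted p under 0.05 there were 0, where 5.94% of all genes were. Limma-voom called 0, where it called 29 of 12229. These counts are near those shares, so nothing is read from them. Their log2 fold changes ran from -0.13 to 0.06 with a median of -0.05. Rbmxl1 and Rbmx, which encode RNA-binding proteins with a related recognition motif, had log2 fold changes of -0.13 and -0.06, and Rtn3, which in mouse brain is known as a target of Rbm3 protein, had 0.06 (limma adjusted p = 0.868, 0.973 and 0.975). Trpv4, a temperature-sensitive cation channel, was at 1.30 ± 0.271 FPKM in PS and 1.40 ± 0.296 FPKM in control brains (SD, n = 3 each), a gene chosen after its values were seen.

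Heat-shock genes, which respond to warming, were read in the same way. All 19 were tested, and limma called 0, where 0.164% of all genes were, and 0 with the block, where 0.393% were. At an unadjusted p under 0.05 there were 2, where 5.94% of all genes were, and limma-voom called 0. Of them, 10 lay below 0 and 9 above, and the median log2 fold change was -0.003. Hspa1a, an inducible Hsp70, stood at 2.13, 1.90 and 2.26 FPKM in PS replicates 1, 2 and 3, against 2.97, 2.76 and 2.25 FPKM in control replicates 1, 2 and 3. Control replicate 3 lay within the PS range. Dnajb1, its Hsp40 partner, averaged 17.6 ± 0.199 FPKM in PS and 20.5 ± 2.42 FPKM in control brains, and Hsf2, a heat shock transcription factor, 2.28 ± 0.101 FPKM in PS and 2.62 ± 0.392 FPKM in control brains (SD, n = 3 each). The limma adjusted p of Hspa1a, Dnajb1 and Hsf2 were 0.784, 0.817 and 0.934.

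Clock genes bear on Cirbp, since its protein is known to bind clock transcripts. Of 19 tested, limma called 0, where 0.164% of all genes were, and limma-voom called 0. At an unadjusted p under 0.05 there were 5, where 5.94% of all genes were. With the replicate block 1 was called, where 0.393% of all genes were. Dbp, a transcription factor of clock output, was at 31.8, 34.2 and 33.5 FPKM in PS replicates 1, 2 and 3, against 20.3, 22.2 and 28.3 FPKM in control replicates 1, 2 and 3 (log2 fold change 0.49, limma adjusted p = 0.266, and 0.0461 with the block). Its control replicate 3 lay nearest to the PS libraries, as for Clk1. Cry1 and Per1, repressors of the clock, had log2 fold changes of -0.30 and -0.30 (limma adjusted p = 0.356 and 0.538), and the median of the list was 0.02.

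Nonsense-mediated decay, the pathway that removes transcripts with an early stop codon, was examined through 14 of its factors and those of the exon junction complex. All 14 were tested, and limma called 0, where 0.164% of all genes were, and 0 with the block, where 0.393% were. At an unadjusted p under 0.05 there were 0, where 5.94% of all genes were. Limma-voom called 0, where it called 29 of 12229. These counts too are near those shares, and nothing is read from them. Their log2 fold changes ran from -0.14 to 0.05, with 11 below 0 and 3 above. Their summed level was 177.06 to 180.67 FPKM in PS and 182.42 to 189.42 FPKM in control brains. Upf3b, Magoh and Casc3 had the lowest unadjusted p, with log2 fold changes of -0.14, -0.10 and -0.06 (limma adjusted p = 0.844, 0.945 and 0.975).

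Genes next to the members in the RefSeq table were read beside them. Ppil3 and Bzw1, which flank Clk1 on chromosome 1, had log2 fold changes of -0.06 and -0.06 (limma adjusted p = 0.984 and 0.973), against -0.50 for Clk1. Col23a1, next to Clk4 on chromosome 11, had 0.03, and BC049762, which overlaps Clk4 on the opposite strand, was at 0.0963 FPKM in PS and 0.143 FPKM in control brains. Edc3, next to Clk3 on chromosome 9, had -0.09, close to the value of Clk3. Midn, which neighbours Cirbp on chromosome 10, averaged 6.27 FPKM in PS and 8.21 FPKM in control brains (log2 fold change -0.34, limma adjusted p = 0.326), while Fam174c, which lies nearer to Cirbp, had 0.19 (limma adjusted p = 0.886). Wdr13, which neighbours Rbm3 on the X chromosome, had -0.05.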

How the data were processed

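The authors deposited 1 table of FPKM per library. The submitters' processing notes list fastp, HISAT2, HTSeq, R 3.2.0 and the build GRCm39, without order or settings, so values of genes that overlap, are antisense or have near-identical copies are uncertain. All 6 libraries were used and grouped by their titles. Members and lists were chosen with earlier results of these data known.

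Values were taken as log2(FPKM + 1), which understates the change of low genes, without rescaling. Genes with a mean of at least 1 FPKM were tested with limma 3.58.1 under R 4.3.3 (group only, variance trend, two-sided), with Benjamini-Hochberg adjustment over 12229 genes and calls at an adjusted p under 0.05. The pipeline was tested on simulated data. An exact permutation test of 3 against 3 libraries was not used for members, since these are described only.

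Whole reads were recovered from the FPKM steps, within 0.02 reads for 99.996% of genes above 0, and serve for counting error and limma-voom. Counting errors cover counting only. Genes named from a list are those called, or the 3 with the lowest unadjusted p, and exceptions are marked; neighbours were named by position. Likeness was named for members with a range of at least 0.3 on the log2 scale.

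The labels number samples 1 to 3 in each group. Over genes, the departures of libraries 1, 2 and 3 from their group means correlated across the groups at 0.181, 0.185 and 0.161, all above 0.1, so the number was used as a block in an alternative fit. This pairing comes from the data, not the labels. Other alternatives were another pseudocount, other filters, rescaling, no variance trend, sample weights, limma-voom and each library left out. Promoter windows are from RefSeq on GRCm38.p6, another build than the files', so no other nuclear coordinates are given.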

Additional observations from a re-analysis of the deposited data

How the results depend on the processing

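Of 89 values of member log2 fold changes under alternatives, 78 kept their sign and their side of the threshold, 3 passed it and 8 turned sign. Many of these signs were fixed in advance. The filters, the variance trend and the replicate block leave the fold change as it was and alter only its standard error and its p-values. For Clk1, Clk3 and Clk4, whose groups do not overlap, leaving out 1 library could not turn the sign either. The main count of called genes, 20, was 1 with no filter on low values, 9 at a mean of at least 5 FPKM (where Clk2 could not be tested), 48 with the replicate block and 632 with sample weights, and 0 to 66 with 1 library left out. The log2 fold change of Clk1 passed at -0.58 with sample weights and at -0.50 with the replicate block, and it ran from -0.60 to -0.45 with 1 library left out, passing only without control replicate 3. The block changed no call of another member. With sample weights Clk2 turned to -0.049 and Cirbp to 0.085. With 1 library left out, Clk2 ran from -0.024 to 0.095, turning to -0.024 without PS replicate 2 and to -0.019 without control replicate 3. Cirbp ran from -0.22 to 0.16, turning to 0.16 without control replicate 3. Rbm3 ran from -0.11 to 0.19, turning to -0.0076 without PS replicate 3, to -0.024 without control replicate 1 and to -0.11 without control replicate 2. Clk3 and Clk4 stayed below 0 in all 15 alternatives each, from -0.13 to -0.07 and from -0.25 to -0.18. The cause of these shifts was not tested. Counting error was largest for Clk2, at 8.51 to 10.3% over 94 to 138 reads per library. Its coefficients of variation were wider, at 14.3% in PS and 14.4% in control brains.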
